A study of Sus scrofa with 4 samples.

Results

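A set of 10 WNT signalling genes was followed across the cells of pig embryos and pig endometrium: the secreted inhibitor DKK1, the ligands WNT4, WNT5A and WNT11, the receptors FZD5, FZD7, ROR2 and LRP6, the R-spondin RSPO3 and its receptor LGR4. They were chosen by symbol, as the rows of the deposited matrices whose gene name equals the symbol, and 9 of the 10 were found among 21280 features. WNT4 was not analysed here. The study took embryos and endometrium of the pig (Sus scrofa) on day 9 and on day 12 of pregnancy and made 1 droplet library of single cells from each tissue on each day. The embryos were dissociated with papain, dispase and DNase I, the endometrium with collagenases, dispase and DNase I, and red blood cells were lysed. Breed, age, the number of animals and any pooling are not given in the sources used here. With 1 library in each of the 4 groups no difference has a replicate check, and no test between groups was made. Each value is a sum of unique molecular identifiers (UMIs, counted molecules) over a class of cells, scaled to 1000000 UMIs of that class (CPM), with an exact 95% interval that covers counting error only.

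WNT ligands are secreted proteins that bind Frizzled receptors (the FZD genes). With the co-receptors LRP5 and LRP6 this stabilises beta-catenin, which acts with TCF and LEF factors on genes such as AXIN2, while WNT5A and WNT11 often signal through ROR2 and Frizzled receptors without beta-catenin. DKK1 binds LRP6 and blocks the beta-catenin branch, and R-spondins, through LGR receptors, prevent the ligases ZNRF3 and RNF43 from removing Frizzled receptors. In these days of pig pregnancy the conceptus, made of trophectoderm, hypoblast and epiblast, elongates beside an endometrium that is under progesterone, and attachment follows later.

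On Sscrofa11.1, in RefSeq's gene spans, DKK1 lies on chromosome 14 (97487854 to 97490118), WNT5A on chromosome 13 (37344684 to 37367215) and WNT11 on chromosome 9 (10413182 to 10435158). FZD5 (110913990 to 110921388) and FZD7 (105644164 to 105648860) both lie on chromosome 15, ROR2 on chromosome 14 (2803840 to 3035384) and LRP6 on chromosome 5 (60149041 to 60318719). RSPO3 lies on chromosome 1 (35985985 to 36066432) and LGR4 on chromosome 2 (32871837 to 32979150). In the kept cells of all 4 libraries the genes gave between 948 UMIs (ROR2) and 59524 UMIs (DKK1), and these totals are not compared as levels because 3′ counts of different genes are not on 1 scale.

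After filtering, 7000 cells of the day 9 embryo, 6671 of the day 12 embryo, 7984 of the day 9 endometrium and 8962 of the day 12 endometrium were used, from libraries of 27250593 to 109449139 UMIs. Clusters were formed without the WNT genes and named "X-like" from marker lists. Clusters that met no name are in no class: 461 cells of the day 9 embryo, 510 of the day 12 embryo, 16 of the day 9 endometrium and 407 of the day 12 endometrium. The file header of the day 9 embryo library names Cell Ranger 4, that of the other 3 names Cell Ranger 6.1.2, and in the embryo this difference and the day cannot be told apart. Between 54 and 105 kept barcodes were shared by each pair of libraries, and leaving them out kept 18 of 18 ratios within their counting intervals. Hypoblast-like cells held APOA1 at 18870 CPM on day 9 against 21020 CPM on day 12. Trophectoderm-like cells held HAND1 at 204.3 and 1729 CPM. Both genes are on the lists that named these classes, so their levels are no check of the names. The leukocyte gene PTPRC, which is on no list, had no UMI in any embryo class, and its endometrial level is not given here. Among the unnamed day 12 embryo cells, cluster 11 (20 cells) held the 15 stromal markers at 2988 CPM, with 10 at 0. Hypoblast-like cells of that day held them at 139.4 CPM. Of the epiblast list only 4 markers on day 9 and 5 on day 12 were detected. The epiblast-like cells numbered 21 on day 9 and 143 on day 12, and an extraembryonic mesoderm-like cluster of 201 cells was found on day 12 alone.

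**Figure D1:**
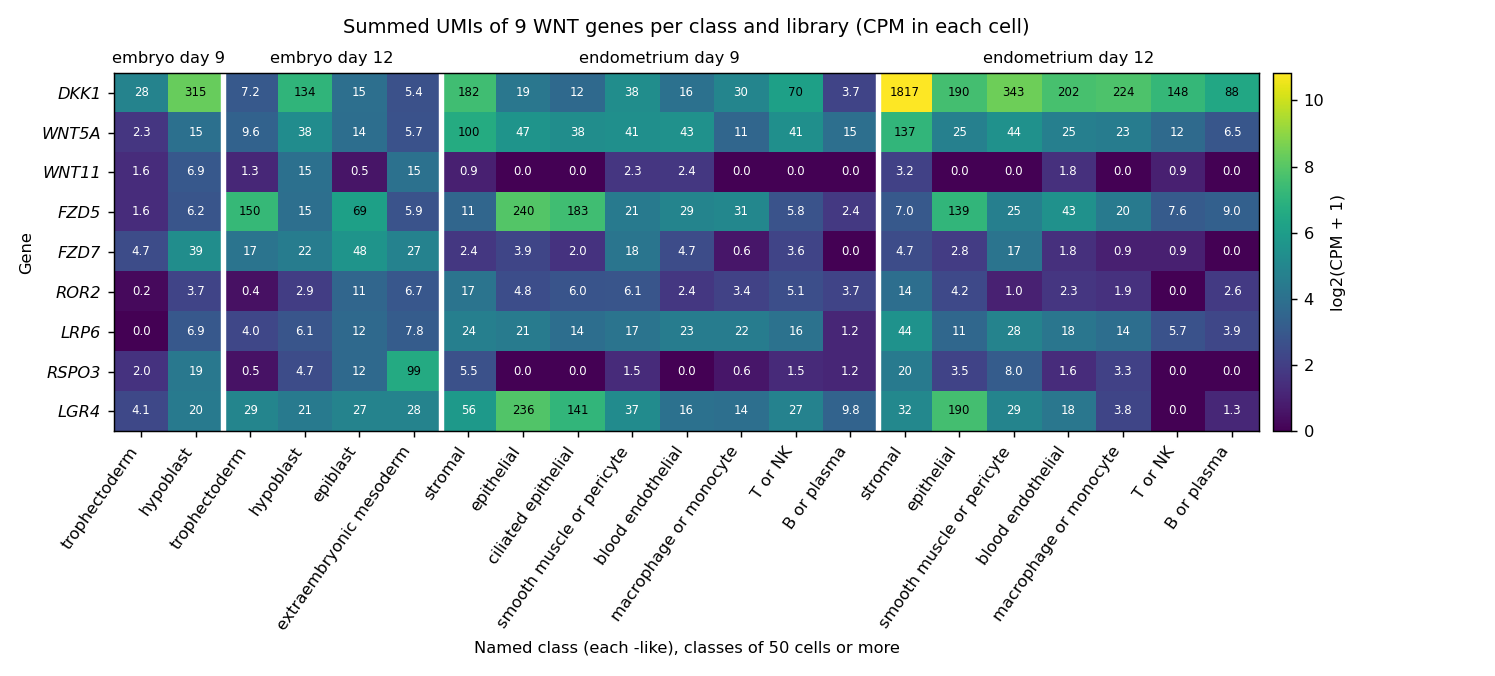
Level of each of the 9 genes (rows) in each named class of 50 cells or more (columns), with the CPM printed in each field and the colour giving log2(CPM + 1). Rows are read from left to right, not against each other: DKK1 reaches 1817 CPM in stromal-like cells on day 12, FZD5 149.8 CPM in trophectoderm-like cells on day 12 and RSPO3 98.8 CPM in extraembryonic mesoderm-like cells.

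DKK1, the inhibitor, was highest in the stromal-like cells of the endometrium and in the hypoblast-like cells of the embryo, and its level moved in opposite directions in these classes between day 9 and day 12. In stromal-like cells it stood at 182.3 CPM on day 9 (interval 175.5 to 189.3, 2707 UMIs in 5080 cells) and at 1817 CPM on day 12 (interval 1794 to 1840, 24221 UMIs in 5613 cells), which is 9.96-fold higher (interval 9.58 to 10.4). In hypoblast-like cells it stood at 315.0 CPM on day 9 (interval 311.0 to 319.0, 5867 cells) and at 133.9 CPM on day 12 (interval 129.8 to 138.2, 2568 cells), which is 2.35-fold lower (interval 2.27 to 2.43). Stromal-like cells held 89.9% of the DKK1 UMIs of the day 9 endometrium and 86.8% of those of day 12, while they were 63.6% and 62.6% of its cells. Hypoblast-like cells held 97.1% and 90.2% of the embryo's DKK1 UMIs.

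The stromal difference was seen in each stromal-like cluster. On day 9 the 3 stromal-like clusters had 266.9, 72.3 and 275.8 CPM (clusters 1, 2 and 3), and on day 12 the 5 clusters had 1167, 2316, 2042, 2426 and 1285 CPM (clusters 1, 2, 3, 8 and 9). No day 9 cluster overlapped a day 12 cluster. Clusters of 1 library share that library and are not replicates, and they are shown one by one because day 9 cluster 3 has the pericyte marker RGS5 and no stromal marker among its 10 leading genes. In that cluster RGS5 was at 1650 CPM, the 13 smooth muscle or pericyte markers summed to 2494 CPM with 1 (MCAM) at 0, against 15390 CPM in the smooth muscle or pericyte-like cells of the same day, and its DKK1 level was the highest of the 3. By value, counting intervals aside, the lowest cluster on each day, cluster 2 on day 9 and cluster 1 on day 12, had AGT, CEMIP and HHIP among its leading genes.

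The change was spread over the cells. Per stromal-like cell the median DKK1 level was 0 CPM on day 9 and 1511 CPM on day 12, the 90th percentile was 679.9 and 4230 CPM, and the highest cell held 9 and 60 UMIs. The tenth of the stromal-like cells with the most DKK1 held 56.3% of its UMIs on day 9 and 33.2% on day 12. After every cell was thinned to 1000 UMIs, 15.9% of stromal-like cells had a DKK1 UMI on day 9 and 68.8% on day 12, against 30.7% and 81.9% before thinning. Both lymphoid classes were taken as background. In T or NK-like cells the thinned share was 2.65% on day 9 and 10.02% on day 12. In B or plasma-like cells it was 0 of 78 cells on day 9, where a floor of 3 cells would be 3.85%, and 3.90% on day 12. Unthinned the shares were 7.36% and 12.6% in T or NK-like cells, at median depths of 1323 and 1242 UMIs per cell, and 3.85% and 33.8% in B or plasma-like cells, at 10461.5 and 9919 UMIs, against 2684.5 and 2171 UMIs in stromal-like cells.

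In the other endometrial classes DKK1 was also higher on day 12. Epithelial-like cells went from 18.8 to 190.1 CPM, blood endothelial-like cells from 15.7 to 201.5, macrophage or monocyte-like cells from 29.7 to 224.0 and B or plasma-like cells from 3.66 to 87.8. Stromal matrix genes (the 5 named next) did not rise in the same way. They summed to 5309 and 6691 CPM in epithelial-like cells and to 17880 and 4345 CPM in T or NK-like cells on day 9 and day 12. DKK1 and the matrix genes are therefore set side by side as shares of their stromal-like level on the same day. On day 12 DKK1 was at 10.5% of its stromal level in epithelial-like cells, where 5 matrix genes (COL1A1, COL1A2, COL3A1, DCN and LUM) summed to 11.6% of theirs. The paired shares were 11.1% and 9.39% in blood endothelial-like, 12.3% and 12.3% in macrophage or monocyte-like, 8.14% and 7.55% in T or NK-like and 4.84% and 5.12% in B or plasma-like cells. Smooth muscle or pericyte-like cells, at 343.1 CPM of DKK1, had 18.9% of the stromal level against 28.2% for the matrix genes. On day 9 T or NK-like cells stood apart from the other lymphoid class, with DKK1 at 69.9 CPM, and there both shares were high, 38.3% for DKK1 and 38.1% for the matrix genes. Of the 15 stromal markers none was at 0 in any of these classes except 1 in B or plasma-like cells on day 9 and 2 on day 12, and the summed list ran from 7.21% to 41.7% of its stromal level on day 9 and from 5.33% to 34.5% on day 12. The part of such stromal RNA in the DKK1 level of these classes was not tested.

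**Figure D2:**
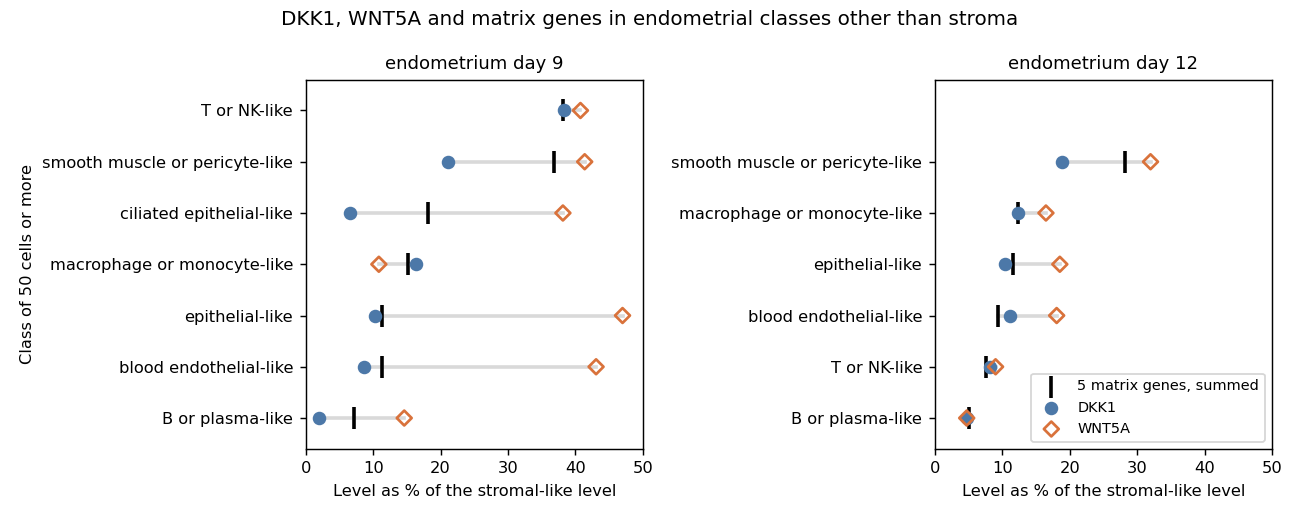
Level of DKK1 (circles), of WNT5A (open diamonds) and of 5 summed matrix genes (black ticks) in each endometrial class of 50 cells or more, as a percentage of the stromal-like level of the same day (horizontal axis). DKK1 lies at or below the matrix genes or within 2 percentage points of them on both days, while WNT5A lies far to the right of them in epithelial-like (47.0% against 11.3%) and blood endothelial-like cells (43.1% against 11.3%) on day 9.

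The order of classes by level leaves out the 407 unnamed cells of the day 12 endometrium, where DKK1 was at 69.9% of its stromal level. Stromal-like cells led this order on both days and did not overlap the next class. Below them, on day 12, smooth muscle or pericyte-like cells stood apart, the macrophage or monocyte-like, blood endothelial-like, epithelial-like, ciliated epithelial-like (43 cells) and T or NK-like classes followed in that order with each interval overlapping the next, and B or plasma-like cells were lowest. On day 9 T or NK-like cells came second and the intervals of the 6 classes below them overlapped neighbour by neighbour.

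Within the embryo the hypoblast-like clusters did not overlap between the days either. On day 9 clusters 1 to 6 had 309.6, 239.7, 304.5, 412.8, 296.6 and 389.4 CPM, and on day 12 clusters 2, 6 and 7 had 193.8, 12.4 and 123.6 CPM. The day 12 clusters are given one by one because cluster 2 has the muscle gene TAGLN, and cluster 7 the endothelial gene PECAM1, with no hypoblast marker among the 10 leading genes. In cluster 2 TAGLN was at 83.97 CPM and the 13 smooth muscle or pericyte markers summed to 98.5 CPM with 4 at 0, against 13750 CPM in the smooth muscle or pericyte-like cells of the day 12 endometrium. In cluster 7 PECAM1 was at 373.6 CPM and the 13 endothelial markers summed to 450.8 CPM with 3 at 0, CDH5 among them, against 5786 CPM in the blood endothelial-like cells of that endometrium. PECAM1 was also at 117.5 to 185.3 CPM in the hypoblast-like clusters of day 9. The lowest, cluster 6, was led by TTR, a liver and yolk sac transport protein gene, and held 13 DKK1 UMIs in 138 cells. Per hypoblast-like cell the median was 259.8 CPM on day 9 and 73.2 CPM on day 12. The thinned share of hypoblast-like cells with a DKK1 UMI was 26.0% on day 9 and 10.7% on day 12, against 3.07% and 1.05% in trophectoderm-like cells. Unthinned it was 88.2% and 56.4%, against 17.4% and 5.91% in trophectoderm-like cells, at median depths of 12537 and 11060.5 UMIs in the first and 5704 and 8216 in the second. In the same hypoblast-like cells 7 of 8 genes induced by dissociation, such as FOS (391.5 and 1021 CPM), were at least 2-fold higher on day 12, where 12.0% of 8234 genes were. The part of dissociation in the day differences of this class was not tested.

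In the other named classes of the embryo DKK1 was lower than in hypoblast-like cells. The unnamed cells, whose best-scoring class was hypoblast, held 572 DKK1 UMIs on day 9 and 170 on day 12, at median depths of 4054 and 1771.5 UMIs. Trophectoderm-like cells had 28.0 CPM on day 9 and 7.23 CPM on day 12, which is 8.89% and 5.40% of the hypoblast-like level, while the hypoblast gene APOA1 in the same cells was at 19.3% and 12.2% of its hypoblast-like level. All 16 hypoblast markers together summed to 19.5% and 14.6% of theirs, with 4 of the 16 at 0 on day 9 and none on day 12. Epiblast-like cells had 50.02 CPM on day 9, from 16 UMIs in 21 cells, and 14.7 CPM on day 12. Extraembryonic mesoderm-like cells had 5.38 CPM, with an interval (3.29 to 8.31) that overlaps that of the trophectoderm-like cells (6.28 to 8.29). Day 9 barcodes of 1 to 99 UMIs, which were not called as cells, held DKK1 at 269.4 CPM (interval 242.4 to 298.6), below the hypoblast-like level.

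WNT5A, a ligand best known for beta-catenin-independent signalling, was highest in stromal-like cells, at 100.1 CPM on day 9 (interval 95.1 to 105.3) and 136.8 CPM on day 12 (interval 130.6 to 143.2). The ratio was 1.37 (interval 1.28 to 1.47). The clusters overlapped between the days, with 122.6, 65.9 and 156.6 CPM on day 9 and 94.2, 151.2, 198.8, 134.4 and 95.4 CPM on day 12. The clusters with AGT, CEMIP and HHIP among their leading genes were again the lowest on each day by value, counting intervals aside. On day 12 that cluster, at 94.2 CPM, was close to cluster 9 (157 cells) at 95.4 CPM, which also has HHIP among its leading genes.

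Epithelial-like cells differed from stroma in direction for WNT5A. They had 47.0 CPM on day 9 and 25.4 CPM on day 12, a ratio of 0.539 (interval 0.367 to 0.772). On day 9 this was 47.0% of the stromal level, where the matrix genes stood at 11.3%, and blood endothelial-like (43.1%) and ciliated epithelial-like cells (38.1%, matrix genes 18.1%) were also above the matrix share. On day 12 the epithelial-like and blood endothelial-like levels were 18.5% and 18.1% of the stromal one, against 11.6% and 9.39% for the matrix genes. On day 9 the intervals of the 5 classes from epithelial-like to ciliated epithelial-like overlapped neighbour by neighbour, at 38.2 to 47.0 CPM, and macrophage or monocyte-like cells were lowest at 10.9 CPM.

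In the embryo WNT5A was higher on day 12. Hypoblast-like cells had 15.1 CPM on day 9 against 37.5 CPM on day 12, 2.48-fold higher (interval 2.28 to 2.70). The day 9 clusters ran from 12.65 to 20.9 CPM, and on day 12 cluster 7 had 41.8, cluster 2 had 26.0 and cluster 6 had 13.4 CPM, so that the smallest cluster lay within the day 9 range. Trophectoderm-like cells had 2.26 CPM on day 9, from 10 UMIs, and 9.63 CPM on day 12, 4.27-fold higher (interval 2.28 to 9.00). Epiblast-like cells had 18.8 and 14.2 CPM with overlapping intervals.

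WNT11, the other ligand found, was a gene of the embryo in these libraries. Hypoblast-like cells had 6.89 CPM on day 9 (516 UMIs) and 15.1 CPM on day 12 (437 UMIs), a ratio of 2.19 (interval 1.92 to 2.49). Among the day 9 clusters, cluster 2 stood out at 22.2 CPM, and the other 5 ran from 2.79 to 6.27 CPM. The day 12 clusters 2, 6 and 7 had 21.8, 35.3 and 12.3 CPM, which overlap day 9 cluster 2 alone. Extraembryonic mesoderm-like cells had 15.3 CPM, with an interval that overlaps that of the hypoblast-like cells, and trophectoderm-like cells 1.58 and 1.34 CPM. In the endometrium no named class exceeded 3.23 CPM. Epithelial-like cells had no WNT11 UMI on either day, which allows levels up to 0.724 CPM on day 9 and 2.11 CPM on day 12 (a floor of 3 counts in the class).

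**Figure D3:**
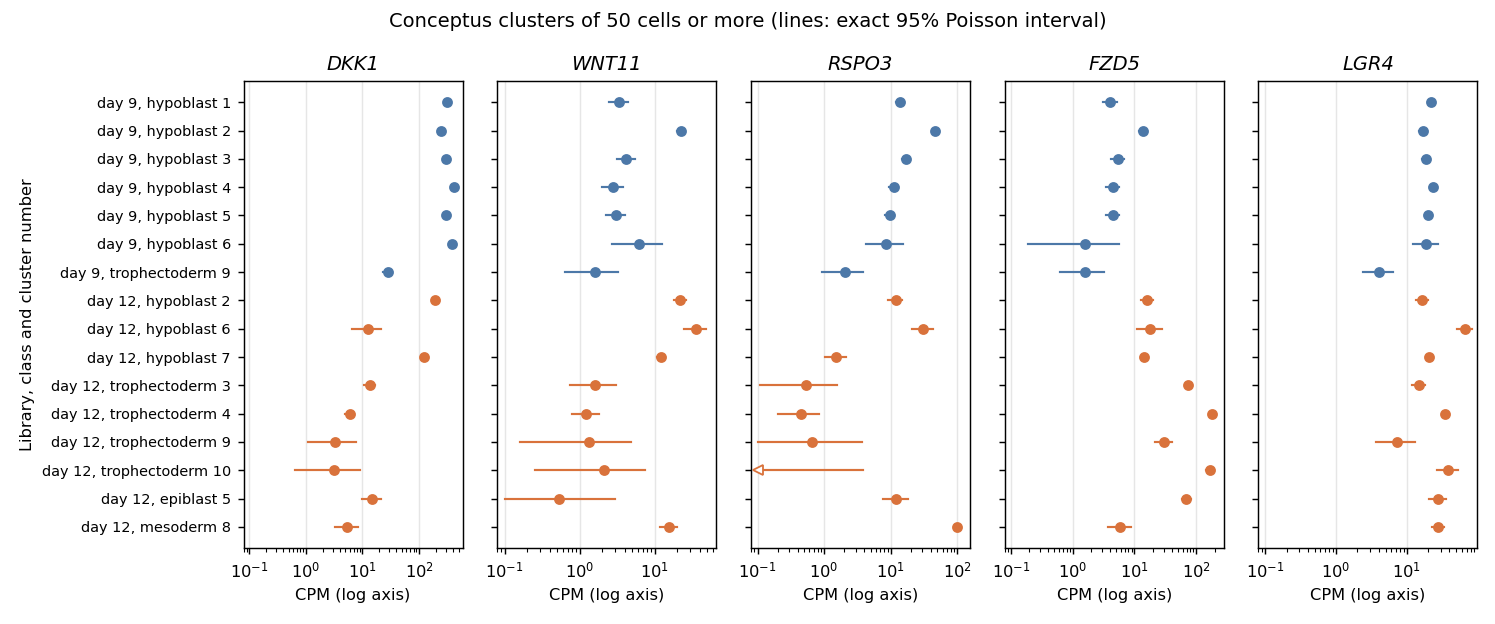
Levels of DKK1, WNT11, RSPO3, FZD5 and LGR4 in each named embryo cluster of 50 cells or more (rows; CPM on a log axis; day 9 blue, day 12 orange), with lines for the exact 95% Poisson interval and an open triangle where no UMI was counted. Day 9 hypoblast-like cluster 2 is the highest of its class for WNT11 (22.2 CPM), RSPO3 (46.7 CPM) and FZD5 (13.9 CPM) and the lowest for DKK1 (239.7 CPM).

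FZD5, a Frizzled receptor, had its widest difference between days in trophectoderm-like cells, the widest of the 9 genes in any class compared. On day 9, 651 such cells held 7 FZD5 UMIs, or 1.58 CPM (interval 0.635 to 3.26), and on day 12, 3249 cells held 4248 UMIs, or 149.8 CPM (interval 145.4 to 154.4). The ratio was 94.8 (interval 46.0 to 236). The 4 trophectoderm-like clusters of day 12 had 74.5, 178.6, 29.9 and 168.7 CPM (clusters 3, 4, 9 and 10), and each lay above the upper bound of day 9. Thinned to 1000 UMIs, 0.154% of trophectoderm-like cells had a FZD5 UMI on day 9 and 12.7% on day 12, against 0.498% of extraembryonic mesoderm-like cells on day 12. Unthinned the shares were 1.08% and 55.6%, against 8.96% in extraembryonic mesoderm-like cells, whose median depth of 19030 UMIs was above the 5704 and 8216 UMIs of the trophectoderm-like cells.

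Several measures differed between the trophectoderm-like cells of the 2 days beside FZD5. The day 9 class was a single cluster with a median of 0.546% mitochondrial UMIs, and the day 12 class had 3.63%. All 8 dissociation-induced genes at 5 CPM or more were at least 2-fold higher on day 12, where 29.3% of 7770 genes were, with EGR1 at 7.68 and 412.4 CPM. Of these, NR4A1 (1.81 CPM on day 9) and KLF4 (3.61 CPM on day 9) reached 5 CPM on day 12 alone and had to be higher there. Day 12 cluster 9 had 0.283% mitochondrial UMIs, below the day 9 class, and its FZD5 level was 29.9 CPM. The 18 trophectoderm markers summed to 60490 CPM on day 9 and 23610 CPM on day 12, with none at 0, while HAND1 went from 204.3 to 1729 CPM and KRT18 from 22330 to 2960 CPM. The part of these differences in the FZD5 ratio was not tested.

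FZD5 was also found in the epiblast-like cells, at 162.6 CPM on day 9 from 52 UMIs in 21 cells and at 69.3 CPM on day 12 from 132 UMIs. Hypoblast-like cells were far lower, at 6.24 CPM on day 9 against 14.7 CPM on day 12, a ratio of 2.35 (interval 2.06 to 2.69). Their clusters ran from 1.57 to 13.9 CPM on day 9 and were 16.1, 18.2 and 14.1 CPM on day 12. In the same day 12 cells the trophectoderm gene HAND1 was at 5.19% of its trophectoderm-like level, FZD5 at 9.79%, and the 18 trophectoderm markers at 28.1%, with none at 0. On day 9 these 18 markers summed to 5.13% of the trophectoderm-like level. The part of trophectoderm RNA in the hypoblast-like FZD5 level was not tested.

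In the endometrium FZD5 was a gene of the epithelium. Epithelial-like cells had 240.4 CPM on day 9 (interval 225.7 to 255.8) and 138.7 CPM on day 12 (interval 120.0 to 159.5), a ratio of 0.577 (interval 0.493 to 0.673). By value, counting intervals aside, both day 9 clusters, at 224.3 and 261.5 CPM, were above both day 12 clusters, at 159.5 CPM (59 cells) and 135.8 CPM. Ciliated epithelial-like cells had 182.8 CPM on day 9 and 226.7 CPM on day 12, the latter from 43 cells, and the intervals overlapped. Stromal-like cells had 11.05 and 7.05 CPM, 4.60% and 5.08% of the epithelial-like level, beside EPCAM at 3.98% and 0.814% of its epithelial-like level. Blood endothelial-like cells stood above the other non-epithelial classes on day 12, at 43.3 CPM or 31.2% of the epithelial-like level, with EPCAM at 0.632% and the 11 epithelial markers at 8.69% of theirs, none at 0. On day 9 their 29.0 CPM overlapped the 31.4 CPM of macrophage or monocyte-like cells.

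FZD7, a Frizzled receptor of early embryonic tissues, had its highest levels in the embryo. Hypoblast-like cells had 39.0 CPM on day 9 and 22.2 CPM on day 12, a ratio of 0.569 (interval 0.522 to 0.620). The clusters touched, with 28.0 to 52.4 CPM on day 9 and 23.3, 28.7 and 21.6 CPM on day 12. Trophectoderm-like cells had 4.74 CPM on day 9 against 16.9 CPM on day 12, 3.56-fold higher (interval 2.30 to 5.80). Epiblast-like cells led on day 12, at 47.8 CPM, followed by extraembryonic mesoderm-like cells at 26.9 CPM, whose interval overlapped that of the hypoblast-like cells. In the endometrium smooth muscle or pericyte-like cells had 17.6 and 16.9 CPM, and the other classes of 50 cells or more stayed at or below 4.70 CPM.

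ROR2, the receptor tyrosine kinase that binds WNT5A, had few UMIs. It was highest in stromal-like cells, at 16.8 CPM on day 9 (250 UMIs) and 14.1 CPM on day 12 (188 UMIs), and the ratio of 0.837 had an interval from 0.689 to 1.02. The other endometrial classes had at most 6.14 CPM. In the embryo hypoblast-like cells had 3.69 and 2.90 CPM, epiblast-like cells 11.02 CPM on day 12 and extraembryonic mesoderm-like cells 6.73 CPM. Trophectoderm-like cells held 1 UMI on day 9 and 11 on day 12.

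LRP6, the co-receptor that DKK1 binds, was higher on day 12 in stromal-like cells, where DKK1 was higher too. It stood at 24.4 CPM on day 9 (interval 21.9 to 27.0) and 44.5 CPM on day 12 (interval 41.0 to 48.2), a ratio of 1.82 (interval 1.60 to 2.09). The day 9 clusters had 22.7 to 24.8 CPM and the day 12 clusters 47.0, 44.5, 31.8, 55.2 and 66.6 CPM, with no overlap of these values, their counting intervals aside. On day 9 the intervals of stromal-like, blood endothelial-like, macrophage or monocyte-like and epithelial-like cells overlapped, at 21.5 to 24.4 CPM, whereas on day 12 stromal-like cells stood apart. Epithelial-like cells had 21.5 and 11.3 CPM, a ratio of 0.525 (interval 0.288 to 0.90). In hypoblast-like cells LRP6 was at 6.85 and 6.14 CPM, a ratio of 0.897 with an interval from 0.752 to 1.06. Trophectoderm-like cells held no LRP6 UMI on day 9 and 113 on day 12, or 3.99 CPM, which is 5.89 times a floor of 3 counts for the day 9 class, and the exact interval of the ratio starts at 4.71.

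RSPO3, the R-spondin, was highest in the extraembryonic mesoderm-like cells. These 201 cells held 98.8 CPM (interval 88.9 to 109.4, 367 UMIs) and 66.6% of the day 12 embryo's RSPO3 UMIs, while they were 3.01% of its cells. The next class, epiblast-like cells, had 12.1 CPM, hypoblast-like cells 4.66 and trophectoderm-like cells 0.459 CPM, with no overlap between neighbours. An RSPO3 UMI was found in 50.2% of extraembryonic mesoderm-like cells, at a median depth of 19030 UMIs, and in 3.48% after thinning, against 0.308% and 0.0616% of trophectoderm-like cells. That cluster has VIM, a gene on the stromal list, and no marker of its own list among its 10 leading genes. Its 15 stromal markers summed to 1143 CPM with 5 at 0, against 63560 CPM in the stromal-like cells of the day 12 endometrium.

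In hypoblast-like cells RSPO3 was 4.07-fold lower on day 12 (interval 3.41 to 4.89), at 18.95 CPM on day 9 against 4.66 CPM on day 12. On day 9 cluster 2 was highest, at 46.7 CPM, and the other 5 clusters had 8.62 to 16.8 CPM. On day 12 cluster 6 had 30.6 CPM, cluster 2 had 11.8 CPM and cluster 7, the largest, had 1.499 CPM, so the clusters of the 2 days overlapped. In stromal-like cells RSPO3 was 3.71-fold higher on day 12 (interval 2.89 to 4.81), at 5.52 CPM on day 9 against 20.5 CPM on day 12. The 157 cells of day 12 cluster 9, whose leading genes include CCL19 and C7, had 144.2 CPM, and the other 4 clusters had 22.9, 9.51, 18.1 and 7.12 CPM against 3.94 to 6.16 CPM on day 9.

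LGR4, the receptor for R-spondins, was highest in the epithelium. Epithelial-like cells had 235.8 CPM on day 9 and 190.1 CPM on day 12, a ratio of 0.806 (interval 0.702 to 0.923), and their clusters overlapped, with 203.8 and 277.6 CPM on day 9 and 222.2 and 185.6 CPM on day 12. Ciliated epithelial-like cells had 140.6 and 210.1 CPM. Stromal-like cells had 55.5 CPM on day 9 and 31.95 CPM on day 12, a ratio of 0.576 (interval 0.511 to 0.648), the opposite direction to RSPO3 in the same cells. Their clusters ran from 41.4 to 60.4 CPM on day 9 and from 16.9 to 44.4 CPM on day 12. T or NK-like cells had 26.95 CPM on day 9 and no UMI on day 12, with an upper bound of the exact interval at 3.50 CPM. In the same cells the 5 matrix genes went from 38.1% to 7.55% of their stromal level and the 11 epithelial markers from 7.08% to 1.22% of their epithelial-like level, with none at 0 on day 9 and 1 on day 12. The part of stromal and epithelial RNA in the LGR4 level of these cells was not tested.

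In the embryo LGR4 differed mainly in trophectoderm-like cells, with 4.06 CPM on day 9 (18 UMIs) and 29.2 CPM on day 12 (829 UMIs), 7.20-fold higher (interval 4.53 to 12.2). Hypoblast-like cells had 20.3 and 21.3 CPM, a ratio of 1.05 with an interval from 0.956 to 1.16, although day 12 cluster 6 had 65.9 CPM beside 16.6 and 20.5 CPM in clusters 2 and 7. On day 12 the intervals of the trophectoderm-like, extraembryonic mesoderm-like and epiblast-like classes overlapped, at 27.3 to 29.2 CPM.

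**Figure D4:**
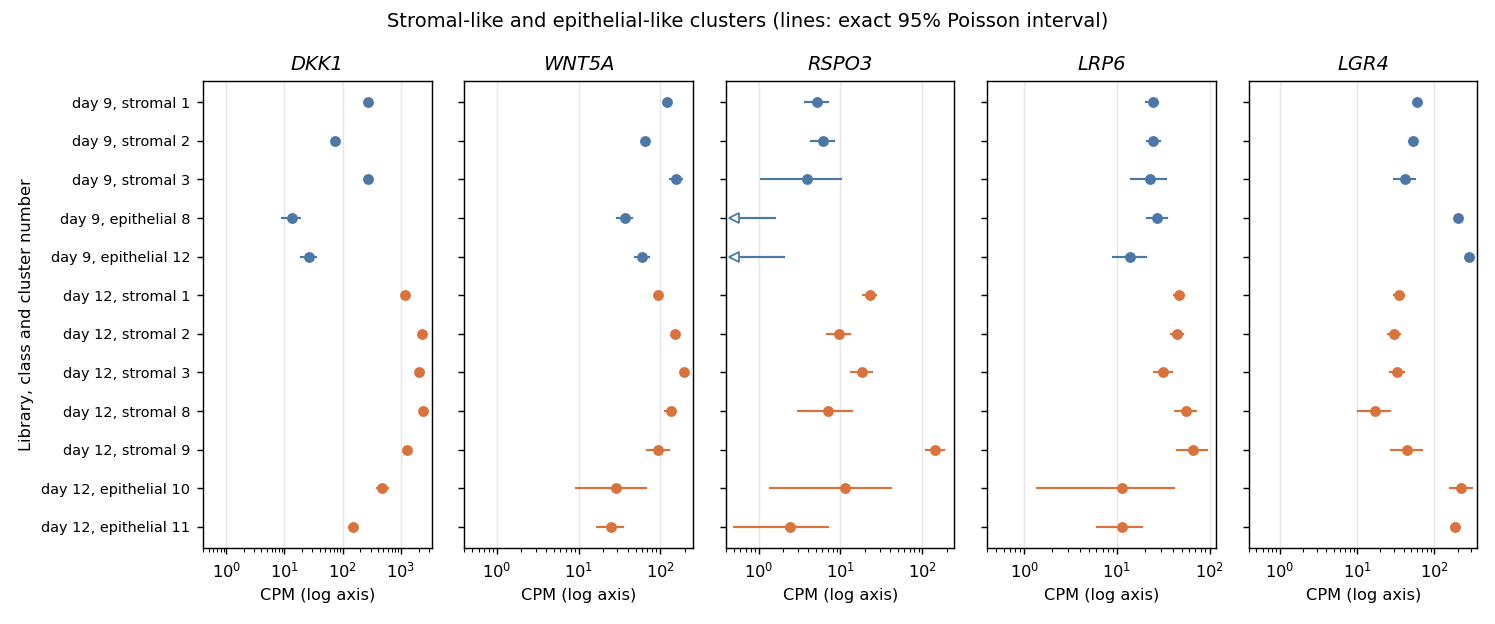
Levels of DKK1, WNT5A, RSPO3, LRP6 and LGR4 in each stromal-like and epithelial-like cluster of the endometrium (rows; CPM on a log axis; day 9 blue, day 12 orange), with lines for the exact 95% Poisson interval and an open triangle where no UMI was counted. The day 12 stromal-like clusters (1167 to 2426 CPM of DKK1) lie to the right of the day 9 ones (72.3 to 275.8 CPM), and cluster 9 of day 12 is apart from the rest for RSPO3 at 144.2 CPM.

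The counts of genes past 2-fold between the days are given beside the share of all genes in each class. In trophectoderm-like cells 5 of the 9 members reached 5 CPM on a day, and 4 were at least 2-fold higher on day 12 (WNT5A, FZD5, FZD7 and LGR4) and 1 lower (DKK1), on the log2 scale with 1 CPM added. Of 7770 genes at 5 CPM or more in that class, 29.3% were higher and 10.1% lower by the same rule. In hypoblast-like cells 8 members reached 5 CPM, 3 were higher (WNT5A, WNT11 and FZD5) and 2 lower (DKK1 and RSPO3), where 12.0% of 8234 genes were higher and 8.85% lower. In stromal-like cells 7 members reached 5 CPM, 2 were higher (DKK1 and RSPO3) and none lower, where 5.89% of 10104 genes were higher and 7.86% lower. In epithelial-like cells 5 reached it and DKK1 alone was higher, where 11.1% of 10487 genes were higher and 15.1% lower. The median log2 difference of the members was 1.71 in trophectoderm-like cells (all genes 0.31), -0.03 in hypoblast-like cells (all genes -0.16), 0.45 in stromal-like cells (all genes -0.10) and -0.79 in epithelial-like cells (all genes -0.16). A member that passed the 5 CPM filter on its higher day alone had to be higher there. That holds for all 4 members that were higher in trophectoderm-like cells, each under 5 CPM on day 9. In the same way RSPO3 in hypoblast-like cells, at 4.66 CPM on day 12, passed through day 9 alone and had to be lower on day 12. Neither these counts nor these medians therefore support a difference of the set. Scaling by the median ratio over genes that held 50 CPM on each day would raise every log2 difference by 0.29 in trophectoderm-like and 0.16 in hypoblast-like cells.

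**Figure D5:**
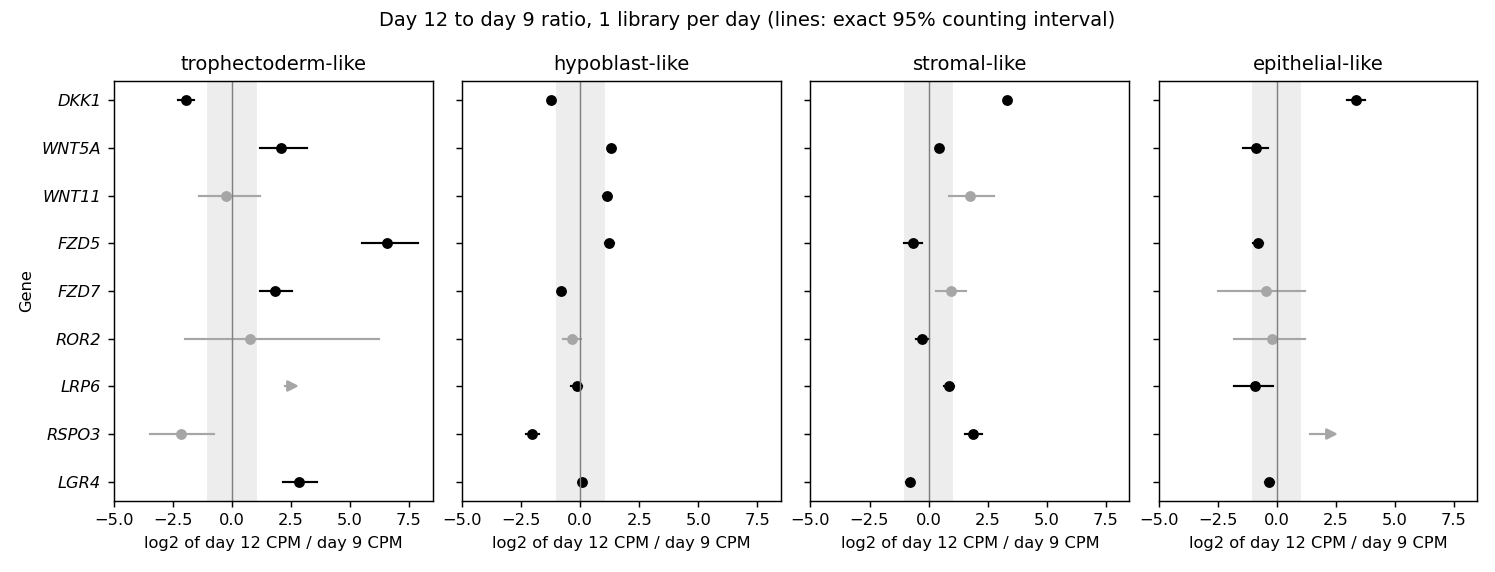
Ratio of day 12 to day 9 for the 9 genes in 4 classes (log2 on the horizontal axis, with lines for the exact 95% counting interval; the grey band spans a 2-fold change; grey points are genes below 5 CPM on both days; arrows mark ratios to a floor of 3 counts where day 9 had no UMI). The stromal-like and hypoblast-like points of DKK1 lie on opposite sides of 0, at 3.32 and -1.23, and FZD5 in trophectoderm-like cells is the farthest point at 6.57.

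The other genes of the pathway were followed in 8 lists, and genes such as TCF7, LEF1, ZNRF3 and NOTUM count in each list that holds them. In stromal-like cells 10 of 13 beta-catenin target and feedback genes in the files reached 5 CPM, none was 2-fold higher and 5 were at least 2-fold lower on day 12. Of 10104 genes in that class 5.89% were higher and 7.86% lower. The list median was -0.90 against -0.10 for all genes. AXIN2, which feeds back on beta-catenin, went from 47.5 to 15.4 CPM, APCDD1, a membrane inhibitor, from 253.6 to 72.3, TNFRSF19 from 25.1 to 7.20, NKD1, which binds Dishevelled, from 24.2 to 8.93 and NOTUM, a WNT deacylase, from 5.05 to 1.05. The list members with the highest levels beside APCDD1 stayed within 2-fold, TCF7 at 420.4 and 305.9, MYC at 149.1 and 203.0 and LEF1 at 70.05 and 56.9 CPM. In epithelial-like cells 7 of 10 were at least 2-fold lower and none higher, where 15.1% of 10487 genes were lower and 11.1% higher. The list median was -1.69 against -0.16 for all genes. LEF1 went from 162.8 to 69.0 CPM, APCDD1 from 49.7 to 15.5, CCND1 from 38.1 to 10.6 and AXIN2 from 22.9 to 4.23. TCF7 was at 234.9 and 181.7 and MYC at 42.2 and 41.5 CPM. Epithelial AXIN2, NKD1, TNFRSF19 and NOTUM, and stromal NOTUM, were under 5 CPM on day 12. They passed the filter through day 9 alone and had to be lower on day 12. They therefore support neither these counts nor the list medians that include them. In these lists AXIN2, NKD1, TNFRSF19, NOTUM and CCND1, and below DKK2, LGR6, epithelial TCF7L2 and hypoblast WNT6, were picked after their values were seen. Of 9 dissociation-induced genes, none passed 2-fold in stromal-like and 1 (DUSP1) in epithelial-like cells. Their list median was 0.395 in stromal-like cells (all genes -0.104) and 0.177 in epithelial-like cells (all genes -0.162). The part of dissociation in the differences of these classes was not tested.

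Ligands, inhibitors and receptors of the same lists differed gene by gene in the stroma, where 5.89% of 10104 genes were at least 2-fold higher and 7.86% lower. WNT6 went from 215.5 to 73.1 CPM, the only 1 of 4 other ligands past 2-fold, and WNT2 was at 97.1 and 56.9. Of 7 other secreted inhibitors, DKK2 was higher (0.808 to 10.9 CPM) and NOTUM lower, while FRZB, a secreted Frizzled-related protein, was at 301.1 and 497.7 CPM, DKK3 at 91.3 and 49.5 and SFRP2 at 26.2 and 28.1. RSPO1, the other R-spondin detected there, was higher, at 7.28 and 52.9 CPM, and LGR6, a further R-spondin receptor, lower, at 13.0 and 1.35 CPM. DKK2 passed the filter through day 12 alone, and NOTUM and LGR6 through day 9 alone, so the filter set the direction of these genes. Of 6 other Frizzled and co-receptor genes, FZD2 was lower, at 22.6 and 7.28 CPM, and PTK7, the highest of them, was at 195.1 and 147.8 CPM. None of 12 transducers, 4 planar polarity genes or 2 secretion genes passed 2-fold in stroma. In epithelial-like cells 3 of 6 planar polarity genes were at least 2-fold lower, where 15.1% of 10487 genes were. CELSR1 was at 77.2 and 21.1 CPM, while VANGL1 and PRICKLE1 passed the filter through day 9 alone and had to be lower on day 12. TCF7L2 was higher, at 20.02 and 82.4 CPM.

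In trophectoderm-like cells, where 29.3% of 7770 genes were at least 2-fold higher on day 12 and 10.1% lower, 8 of 8 dissociation-induced genes were higher (median log2 difference 3.96), and their part in the list counts was not tested. NR4A1 and KLF4 among them reached 5 CPM on day 12 alone and had to be higher there. Of 11 transducers 7 were at least 2-fold higher and none lower, with CTNNB1, the beta-catenin gene, at 52.8 and 202.2 CPM and TCF7 at 2.26 and 87.2 CPM. Of 4 other ligands 3 were higher, with WNT6 at 34.1 and 204.6 CPM and WNT7A at 12.9 and 46.8 CPM, and WLS, which carries WNT proteins to the surface, was at 9.26 and 46.9 CPM. Of 4 beta-catenin targets CCND1, MYC and TCF7 were higher. APC, TCF7, TCF7L2, BCL9, WNT7B and CCND1 were each under 5 CPM on day 9. They passed the filter through day 12 alone and had to be higher there, so these list counts do not support a difference of the lists. In hypoblast-like cells, where 12.0% of 8234 genes were higher and 8.85% lower, 1 of 6 beta-catenin targets passed 2-fold. This was TNFRSF19, at 85.6 and 25.3 CPM, and WNT6 went from 0.761 to 14.7 CPM. WNT6 passed the filter through day 12 alone and had to be higher there.

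Across the 45 clusters of 50 cells or more in the 4 libraries, log2(CPM + 1) of 6793 genes was set beside that of each ligand, DKK1 and RSPO3. The genes most like DKK1 were FRMD6 (Pearson r 0.83), VAV3 (0.81) and FBLN1 (0.80), each highest in a stromal-like cluster of day 12. Those most like WNT5A were HELZ and CTDSPL (both 0.93) and MMP14, a matrix metalloprotease (0.92), again highest in a stromal-like cluster of day 12. PXDN, a matrix peroxidase gene, came first for WNT11 (0.76) and was also among the 3 most like RSPO3 (0.67). For WNT11 MCFD2 and ADGRF4 followed (both 0.74), and for RSPO3 FST, the follistatin gene (0.70), and PRTFDC1 (0.67) came before it. Clusters of 1 library share its depth and its background RNA, so these correlations are a description.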

How the data were processed

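Single-cell 3′ droplet libraries of pig embryo and endometrium (days 9 and 12 of pregnancy, 1 each) were processed by the authors with Cell Ranger (version 6.1.2) against the pig assembly Sscrofa11.1, which the submitters' processing notes name. The deposited values are raw UMI counts per gene and barcode, per the file headers. The sources used here do not give the annotation release or the counting options. The day 9 embryo matrix held 657829 barcodes, of which 92991 had no UMI, so its cells were called here at 2759.47 UMIs. The other libraries held 8105 to 11757 barcodes of at least 500 UMIs.

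Cells of at least 1000 UMIs and 500 genes, and at most 20% mitochondrial UMIs, were kept. Scrublet-marked doublets were removed (93 in the day 12 embryo, 1, 0 and 0 elsewhere, where it did not work and doublets may remain). Each library was clustered alone (scanpy 1.11.5, 2000 variable genes, 30 components, 15 neighbours, Leiden resolution 0.6, seed 0) without the WNT genes. Clusters were named from the mean relative level of each class's markers (at least 0.5, with 3 high markers and a margin of 0.15), a rule set after the data were seen. Counts were summed per class and scaled to CPM. Intervals (95%) are exact Poisson for levels, exact Clopper-Pearson for shares and exact conditional binomial for ratios. The coverage of the ratio intervals alone was tested, on simulated Poisson counts. Shares were also taken after thinning each cell to 1000 UMIs, which left out no cell. A fold above a class with no UMI is taken against a floor of 3 counts.

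The genes, lists and clusters' markers were chosen with earlier results of these data known. Pathway genes were named at 20 CPM or more in the class described, up to 4 per list by level, and others are said to be picked later. Of 78 pathway genes listed 76, and of 180 markers 163, are in the files. WNT4 was not analysed here, and no sequence is printed because no table used here holds one. The alternatives tried were Leiden resolution 1.0, both days clustered together, a minimum of 2000 UMIs, Scrublet-marked cells kept, day 9 embryo cells called at 1000 UMIs, cells weighted equally and median-ratio scaling.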

Additional observations from a re-analysis of the deposited data

How the results depend on the processing

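The log2 ratio of day 12 to day 9 of each gene in its leading class was recomputed under 7 planned settings and 1 chosen after the data were seen (without barcodes that are cells in another library). None changed direction beyond its counting interval and none moved by over 1.5-fold. With cells weighted equally, the ratio of DKK1 was 3.25 (stromal-like, 3.32 as reported) and -1.18 (hypoblast-like, -1.23 as reported), and that of WNT11 in hypoblast-like cells 0.92 (1.13 as reported). With median-ratio scaling, DKK1 was 3.40 and -1.07, and in hypoblast-like cells WNT5A was 1.47 (1.31 as reported), FZD7 -0.65 (-0.81 as reported) and LGR4 0.23 (0.07 as reported). LRP6 in hypoblast-like cells, -0.16 as reported, came to 0.003 under that scaling, within its interval. All other recomputed ratios stayed within the counting interval of the reported one. With both days clustered together 10 ratios were recomputed, and 8 hypoblast-like ones could not be, since the day 9 cells of that class were then left unnamed. No paired analysis was possible because each group has 1 library. Depth limits the small classes most: in the 21 epiblast-like cells of day 9 each gene had at most 52 UMIs.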
